A study of Mus musculus with 6 samples.

Results

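The sodium pump moves sodium out of the cell and potassium in, at the cost of ATP. Its alpha subunit carries out the transport, and its beta subunit is a glycoprotein with a single membrane span that the alpha subunit needs to fold, to leave the endoplasmic reticulum and to reach the plasma membrane. Small membrane proteins of the FXYD family bind the assembled pump and tune it. The genes described here are the beta subunit genes Atp1b1, Atp1b2 and Atp1b3, 3 of the 18908 genes in the deposited table. They were found by their gene names, and were chosen by their family together with the differences already seen between the study's groups, so their values between those groups are given as a description, with no test.

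The study asked about VprBP, now named Dcaf1, in osteoclast differentiation. Messenger RNA of mouse cells was sequenced from 3 libraries with the genotype VprBP1 Knockdown (VprBPsh, a short hairpin RNA against VprBP) and 3 with the genotype WT (Contsh, a control hairpin), made with a SMARTer kit. The cells of all 6 are labelled BMDM, bone marrow-derived macrophages, and neither an animal, a sex, an age nor a separate culture is given for a library. The spread behind each p-value is thus that of the 6 libraries, and may be technical.

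Libraries held 17825340 to 18407356 counts in the VprBP-labelled group and 16839445 to 21838875 in the control-labelled group. Dcaf1 stood at 35.8 ± 1.11 CPM in VprBP-labelled and 42.1 ± 1.42 CPM in control-labelled libraries (SD, n = 3 each; log2 difference -0.24, edgeR quasi-likelihood adjusted p = 0.00625, exact two-sided permutation p = 0.1, the smallest that 3 against 3 allow). It was no longer called when scaled by library size only (adjusted p = 0.137), so the groups are named by their labels and no difference is ascribed to loss of VprBP. Of 10 macrophage markers 4 had a row, summing to 16.5 to 18.2 CPM in VprBP-labelled and 37.1 to 40.2 CPM in control-labelled libraries, and Csf1r, Adgre1, Itgam, Spi1, Tyrobp and Aif1 had none. Of these 4 Cd68 fell, to 1.01 CPM in VprBP-labelled libraries, against 31.6 CPM in control-labelled libraries, Mertk (13.3 and 5.35 CPM, in the same order) and Lyz2 (2.51 and 1.06 CPM) rose, and Cd14 was not called. The 8 pigment cell markers summed to 19650 to 20160 CPM in VprBP-labelled and 21070 to 21450 CPM in control-labelled libraries. The labelled cell type thus went against its markers. Behind these similar sums, the pigment cell markers moved in both directions under the VprBP label. Tyr rose 3.79-fold and Mitf 3.44-fold, Sox10 and Dct also rose, and Tyrp1 rose slightly (1.06-fold, edgeR adjusted p = 0.0462). Slc45a2 fell 3.81-fold, Pmel 2.78-fold and Mlana 2.68-fold. Between the labels 75.0% of the 14641 tested genes were called (adjusted p below 0.05), with 37.9% having a higher and 37.0% a lower level under the VprBP label, and 77.2% had groups that did not overlap.

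The 3 genes lie on different chromosomes of GRCm38, all on the minus strand. Atp1b1 (ENSMUSG00000026576.12; chr1:164437109-164458355) has 4 annotated transcripts that together cover 3081 exonic bases. Atp1b2 (ENSMUSG00000041329.13; chr11:69599736-69605942) has 5, covering 4085 bases. Atp1b3 (ENSMUSG00000032412.8; chr9:96332655-96364442) has 3, covering 2389 bases. RefSeq start-site windows matched Atp1b1 and Atp1b3, which had the lowest and the highest level of the 3 genes. The 250 bases before each start are shown for these 2 matched genes (GRCm38.p6, minus strand, chr1:164458356-164458605 and chr9:96364432-96364681). Capitals mark the GC box GGGCGG and the CCAAT box CCAAT, read on both strands.
Atp1b1: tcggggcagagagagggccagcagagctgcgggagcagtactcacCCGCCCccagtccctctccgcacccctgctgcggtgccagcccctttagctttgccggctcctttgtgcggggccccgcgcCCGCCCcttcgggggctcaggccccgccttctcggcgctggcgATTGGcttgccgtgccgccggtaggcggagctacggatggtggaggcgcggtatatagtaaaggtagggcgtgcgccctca
Atp1b3: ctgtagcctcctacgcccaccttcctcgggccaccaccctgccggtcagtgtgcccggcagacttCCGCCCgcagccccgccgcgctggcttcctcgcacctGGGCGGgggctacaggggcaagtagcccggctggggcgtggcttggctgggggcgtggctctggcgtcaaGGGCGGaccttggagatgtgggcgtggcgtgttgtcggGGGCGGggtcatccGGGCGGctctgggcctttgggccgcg
The Atp1b1 window held 2 GC boxes and 1 CCAAT box, and the Atp1b3 window 5 GC boxes and 0 CCAAT boxes. Neither held the TATA box TATAAA or the E-box CACGTG. Of 32851 such windows in the table, 32.7% held the GC box, 33.8% the CCAAT box, 12.4% the TATA box and 6.02% the E-box. The motifs do not overlap each other as written, and a match is a description of the letters only.

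Atp1b2 was abundant in the VprBP-labelled libraries and had few counts in the control-labelled ones. This beta subunit is also known as the adhesion molecule on glia. Its counts were 3306, 3374 and 3449 in VprBP-labelled libraries 1, 2 and 3, against 29, 22 and 8 in control-labelled libraries 1, 2 and 3. As CPM, the count relative to library size with TMM scaling between libraries, the levels were 178, 182 and 179.8 in the VprBP-labelled libraries, against 1.39, 1.36 and 0.478 in the control-labelled ones. The 3 VprBP-labelled libraries were within a few percent of each other, control-labelled library 3 was the lowest of all, and the groups did not overlap. The means were 180.1 ± 2.0 CPM in VprBP-labelled and 1.08 ± 0.518 CPM in control-labelled libraries (SD, n = 3 each). The log2 difference was 7.35 (SE 0.12), 163-fold with a fitted 95% interval of 136 to 196. The ratio of scaled counts was 164, with a wider 95% interval of 127 to 216 for counting error only, so the fitted interval is too narrow. Without control-labelled library 3 the log2 difference was 7.01. Only 44 of the 14641 tested genes had a larger absolute difference, a description for a gene chosen with this difference known. With 8 counts in control-labelled library 3, Atp1b2 passed the low-count filter only through the VprBP-labelled libraries. In levels per kilobase of exon, 93.3% of 14310 genes lay below Atp1b2 in the VprBP-labelled libraries, against 8.06% in the control-labelled libraries.

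Sums of markers of glia and of other cell types were higher alongside it, though not every marker was. All 10 Schwann cell and myelin markers had a row, of which 9 rose and 1 fell, where 37.9% of all tested genes rose and 37.0% fell. Their sum was 1541 to 1645 CPM in VprBP-labelled and 180.0 to 196 CPM in control-labelled libraries. Most of it was Mbp, a structural protein of myelin (694 ± 35.6 CPM in VprBP-labelled and 20.6 ± 0.753 CPM in control-labelled libraries), and Erbb3, a neuregulin receptor that pigment cells also express (483 ± 13.1 and 120.1 ± 10.42 CPM, in the same order). The 1 that fell was Egr2, a regulator of myelination (0.588 ± 0.303 CPM in VprBP-labelled and 1.29 ± 0.252 CPM in control-labelled libraries, edgeR adjusted p = 0.045). Of 6 astrocyte markers 5 had a row. Of these 3 rose, beside 37.9% of all tested genes, and the others were too low to be tested. The 5 summed to 97.9 to 110 CPM in VprBP-labelled and 5.97 to 7.62 CPM in control-labelled libraries. The intermediate filament gene Gfap and the water channel gene Aqp4 stood at 48.5 ± 4.97 and 29.9 ± 2.28 CPM in VprBP-labelled libraries, against 3.22 ± 0.154 and 0.449 ± 0.227 CPM in control-labelled libraries. The astrocyte glutamate transporters were scarce or unlisted: Slc1a2 was at 0.197 ± 0.250 and 0.302 ± 0.291 CPM in VprBP-labelled and control-labelled libraries, and Slc1a3 had no row. Neuron markers, 3 of 5 with a row, summed to 100.5 to 116 CPM in VprBP-labelled and 16.4 to 17.7 CPM in control-labelled libraries, and fibroblast markers, 4 of 5, to 327 to 376 and 27.2 to 29.0 CPM. Most of the fibroblast sum was the collagen gene Col1a1 (302 ± 28.2 CPM in VprBP-labelled and 14.9 ± 1.07 CPM in control-labelled libraries); Pdgfra also rose, Dcn, which encodes decorin, fell (1.26 ± 0.365 and 2.70 ± 0.297 CPM, in the same order), and Lum was too low to be tested. Osteoclast markers, 3 of 6 with a row, endothelial markers, 2 of 4, and epithelial markers, 4 of 4, each summed to at most 2.48 CPM in any library. The mitochondrial share of counts was 4.89% to 5.56% in VprBP-labelled and 8.65% to 9.48% in control-labelled libraries. The part of these in the Atp1b2 difference was not tested. In bulk RNA, fewer cells of a type and less RNA per cell cannot be told apart.

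Atp1b3 was the most abundant beta subunit transcript in all 6 libraries. It is the widely expressed member of the family, known on human blood cells as CD298. Its level was 236, 250.3 and 262 CPM in VprBP-labelled libraries 1, 2 and 3, against 215, 206 and 195.6 CPM in control-labelled libraries 1, 2 and 3. The ranges did not overlap, but the gap between the lowest VprBP-labelled and the highest control-labelled library was smaller than the spread within the VprBP-labelled group. The means were 249.6 ± 13.3 CPM in VprBP-labelled and 205 ± 9.58 CPM in control-labelled libraries (SD, n = 3 each). The log2 difference was 0.28 (SE 0.05), 1.21-fold with a 95% interval of 1.13 to 1.31, and 77.4% of tested genes differed by more. With library size only it was 0.40, a setting that moved the median of all genes by 0.12.

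Atp1b1, the main beta subunit of kidney and many epithelia, was scarce in both groups. It had 42, 22 and 28 counts in VprBP-labelled libraries 1, 2 and 3, against 4, 1 and 1.46 in control-labelled libraries 1, 2 and 3. That corresponds to 2.26, 1.19 and 1.46 CPM in the VprBP-labelled libraries, against 0.191, 0.0619 and 0.0870 CPM in the control-labelled ones. VprBP-labelled library 1 was the highest, and control-labelled libraries 2 and 3 lay below the level that 3 counts would give. The means were 1.64 ± 0.560 CPM in VprBP-labelled and 0.114 ± 0.0687 CPM in control-labelled libraries (SD, n = 3 each). The log2 difference was 3.81 (SE 0.61), 14.0-fold with a 95% interval of 5.74 to 34.3, and the ratio of scaled counts was 14.7 with a 95% interval of 6.49 to 41.0 for counting error only. Without control-labelled library 1 it was 4.59. The gene passed the low-count filter only through the VprBP-labelled libraries, so a difference in that direction was bound to follow.

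Atp1b1 also shares 617 bases with Nme7, a gene on the opposite strand. The strand setting of the counting is not given in the sources used here, and reads from this stretch cannot be assigned to either gene with certainty. Nme7 itself was at 8.69 ± 1.51 CPM in VprBP-labelled and 7.16 ± 0.892 CPM in control-labelled libraries and was not called (log2 difference 0.28, edgeR adjusted p = 0.146). No annotated gene overlaps Atp1b2 or Atp1b3.

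**Figure D1:**
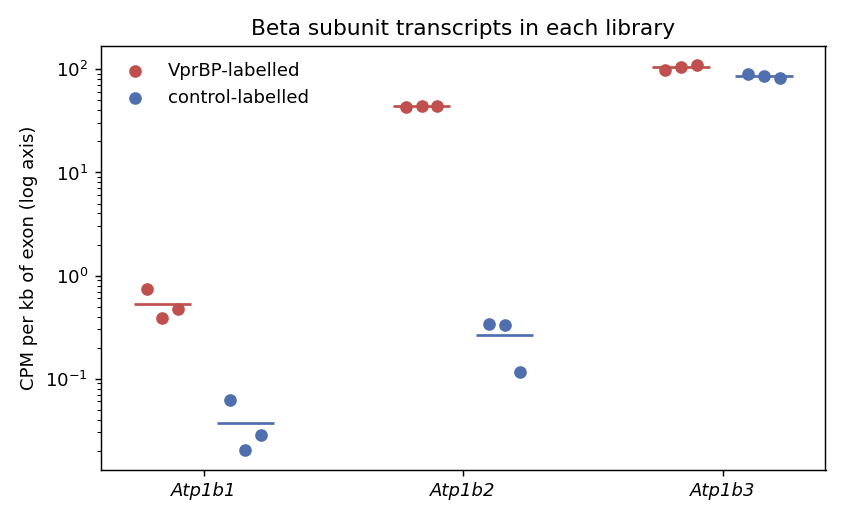
Level of each beta subunit transcript in CPM per kilobase of exon (log axis), with VprBP-labelled libraries on the left of each pair and control-labelled libraries on the right. Points are libraries and lines are group means (n = 3 each): Atp1b2 averaged 44.1 against 0.263, Atp1b3 104 against 86.0 and Atp1b1 0.532 against 0.0368.

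Per kilobase of exon, the order was Atp1b3, Atp1b2, Atp1b1 in both groups. In VprBP-labelled libraries Atp1b3 ranged from 98.8 to 110 CPM per kilobase, Atp1b2 from 43.6 to 44.6 and Atp1b1 from 0.386 to 0.735. In control-labelled libraries Atp1b3 ranged from 81.9 to 89.9, Atp1b2 from 0.117 to 0.340 and Atp1b1 from 0.0201 to 0.0621. No neighbours in this order overlapped within a group.

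The makeup of the beta subunit pool therefore differed between the labels. Atp1b2 made up 30.5%, 29.8% and 28.5% of the summed level per kilobase in VprBP-labelled libraries 1, 2 and 3, against 0.376%, 0.385% and 0.142% in control-labelled libraries 1, 2 and 3. The share of Atp1b3 was 70.0% ± 1.09 in VprBP-labelled and 99.7% ± 0.145 in control-labelled libraries (SD, n = 3 each). Atp1b1 held 0.359% ± 0.136 in VprBP-labelled and 0.0422% ± 0.0238 in control-labelled libraries. The control-labelled pool was thus nearly all Atp1b3, and Atp1b2 accounted for most of what the VprBP-labelled pool held besides it. The ratio of Atp1b2 to Atp1b3 in level per kilobase was 0.423 ± 0.0207 in VprBP-labelled libraries, against 0.00303 ± 0.00138 in control-labelled libraries. Without length scaling this ratio was 0.723 and 0.00517, in the same order. The sum of the 3 genes was 149 ± 5.64 CPM per kilobase in VprBP-labelled and 86.3 ± 4.14 in control-labelled libraries. These shares depend on the length given to each gene: without length scaling, Atp1b2 held 41.8% in VprBP-labelled and 0.514% in control-labelled libraries.

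**Figure D2:**
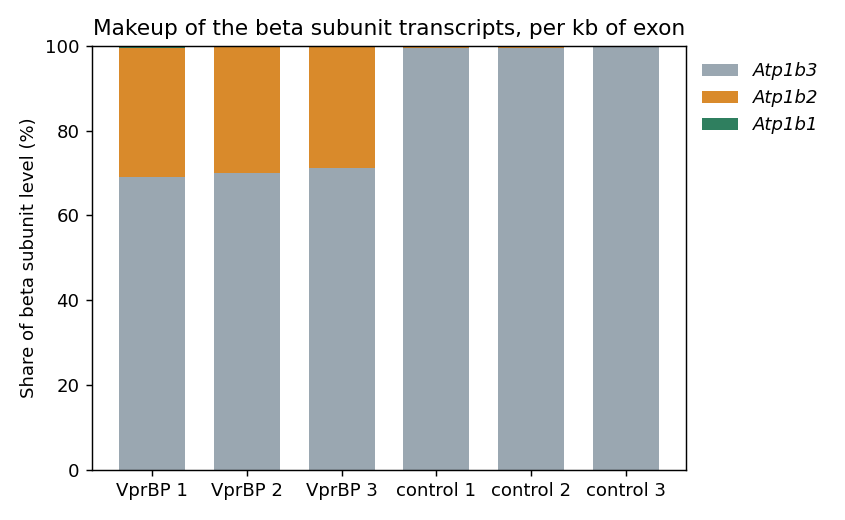
Share of each gene in the summed beta subunit level per kilobase of exon (%), 1 bar for each library, VprBP-labelled on the left. Atp1b2 fills 28.5% to 30.5% of the VprBP-labelled bars and at most 0.385% of the control-labelled bars, where it is too thin to see, as is Atp1b1 in every bar.

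The FXYD genes, whose proteins bind the assembled pump, were higher in the VprBP-labelled libraries wherever they could be tested. Of Fxyd1 to Fxyd7 and the remaining beta gene Atp1b4, 8 in all, 4 had a row and 3 were tested. Of these 3 rose and 0 fell, where 37.9% of all tested genes rose. Atp1b4, Fxyd2, Fxyd6 and Fxyd7 had no row, and Fxyd4 was too low to be tested (0.266 ± 0.0907 CPM in VprBP-labelled and 0.172 ± 0.162 CPM in control-labelled libraries). Fxyd1 and Fxyd3 had 9 and 2 counts in all under the control label and passed the low-count filter only through the VprBP-labelled libraries. A difference in that direction was thus bound to follow for them, and nothing is read from the count of genes that rose. Fxyd5 alone had enough counts in both groups.

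Among the FXYD genes, Fxyd5 (dysadherin) was the most abundant. It stood at 34.0, 32.1 and 31.5 CPM in VprBP-labelled libraries 1, 2 and 3, against 2.49, 2.42 and 2.87 CPM in control-labelled libraries 1, 2 and 3, and rose 12.5-fold (edgeR adjusted p = 1.63e-14). Fxyd1 (phospholemman), the regulator best studied in heart and muscle, stood at 12.1, 9.13 and 9.75 CPM in VprBP-labelled libraries, against 0.191, 0.124 and 0.179 CPM in control-labelled libraries (log2 difference 5.89, SE 0.31). With 9 control-labelled counts its fold is uncertain: the ratio of scaled counts was 61.7, with a 95% counting interval of 32.3 to 136. Fxyd3 had 127 counts in the VprBP-labelled libraries together and 2 in the control-labelled ones, both in library 2, a ratio of 60.7 with a counting interval of 16.5 to 507. Its fitted log2 difference was 5.68, and 8.41 without control-labelled library 2. Fxyd5, Fxyd1 and Fxyd3 lie within a stretch of chromosome 7 (GRCm38, 31032722 to 31076704). Fxyd3 shares 2764 bases there with Lgi4, a gene on the opposite strand that had 24.2 ± 1.79 CPM in VprBP-labelled and 0 counts in control-labelled libraries, so Fxyd3 is uncertain.

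**Figure D3:**
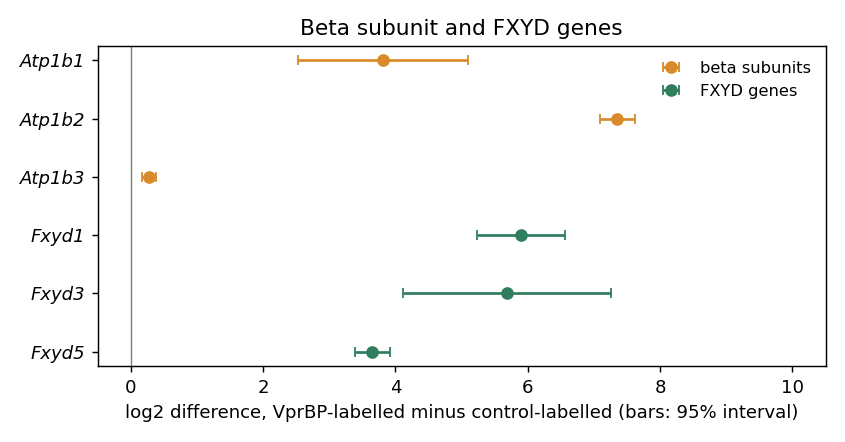
Fitted log2 difference (VprBP-labelled minus control-labelled, 3 libraries each) of the tested beta subunit and FXYD genes, with 95% intervals as bars. Every gene lies above 0, from 0.28 for Atp1b3 to 7.35 for Atp1b2, and the genes with few control-labelled counts (Atp1b1, Fxyd1, Fxyd3) have the wide bars. Atp1b1, Atp1b2, Fxyd1 and Fxyd3 passed the low-count filter only through the VprBP-labelled libraries. The beta subunit genes were chosen with their differences known, so nothing is read from the shared direction.

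Of 18 genes that regulate or bind the pump, 15 had a row and 14 were tested. Of these 9 rose, 2 fell and 3 were not called, where 37.9% of all tested genes rose and 37.0% fell (median log2 difference 1.12, and the same 1.12 with Nkain4 at its lower bound, against -0.01 over all tested genes). Agrn, the heparan sulphate proteoglycan agrin, rose 3.85-fold to 948 ± 54.8 CPM in VprBP-labelled libraries, against 246.5 ± 11.6 CPM in control-labelled libraries. Sptan1, the spectrin of the membrane skeleton, rose 2.13-fold, the kinase Wnk1, which controls sodium and chloride carriers, 1.79-fold, and the tyrosine kinase Src 2.21-fold. Sgk1, the kinase through which aldosterone raises sodium transport, fell 2.19-fold to 13.8 ± 0.835 CPM in VprBP-labelled libraries, against 30.2 ± 2.57 CPM in control-labelled libraries, and the salt-inducible kinase Sik1 fell 2.64-fold. All 6 had an edgeR adjusted p below 0.05, the highest being 3.83e-08 for Sik1. Chosen after their values were seen, Nkain1 and Nkain4 encode proteins known to bind the beta subunit Atp1b1: Nkain1 stood at 29.2 ± 0.834 CPM in VprBP-labelled and 8.63 ± 0.304 CPM in control-labelled libraries, and Nkain4 had 454 counts in the VprBP-labelled libraries and 0 in the control-labelled ones, at least 145-fold higher against 3 counts over the group. Nkain4, 1 of the 9 that rose, passed the low-count filter only through the VprBP-labelled libraries.

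Other cation pumps of the same enzyme class moved in both directions. Of 12, 8 had a row and 6 were tested, with 4 higher and 2 lower, beside 37.9% and 37.0% of all tested genes (median 0.42). The plasma membrane calcium pump Atp2b4 rose 7.75-fold to 52.3 ± 2.60 CPM in VprBP-labelled libraries, against 6.73 ± 0.180 CPM in control-labelled libraries (edgeR adjusted p = 4.42e-15). Its relative Atp2b1 rose 1.47-fold, the Golgi pump Atp2c1 1.22-fold and Atp2a3, a calcium pump of the endoplasmic reticulum, 2.95-fold. Atp2a2, the calcium pump of the endoplasmic reticulum in most cells, fell 1.66-fold to 495.5 ± 18.3 CPM in VprBP-labelled libraries, against 821 ± 8.67 CPM in control-labelled libraries (edgeR adjusted p = 1.04e-11). Its muscle relative Atp2a1 stood at 0.636 ± 0.415 CPM in VprBP-labelled and 3.70 ± 0.867 CPM in control-labelled libraries (log2 difference -2.56), and its log2 difference was -3.19 without VprBP-labelled library 2. Atp2a1 passed the low-count filter only through the control-labelled libraries, so a difference in that direction was bound to follow.

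Carriers that use or load the sodium gradient were divided. Of 28, 24 had a row and 19 were tested: 7 rose, 11 fell and the other missed the threshold, beside 37.9% of all tested genes that rose and 37.0% that fell (median -0.24). The 7 that rose include Slc24a1, named after its values were seen, which had 84 counts in VprBP-labelled and 3 in control-labelled libraries and passed the low-count filter only through the VprBP-labelled ones. The taurine carrier Slc6a6 rose 3.08-fold to 819 ± 19.2 CPM in VprBP-labelled libraries, against 266 ± 15.2 CPM in control-labelled libraries. Slc12a2, which brings sodium, potassium and chloride into the cell together, rose 2.50-fold, the sodium bicarbonate carrier Slc4a4 4.49-fold and the sodium-proton exchanger Slc9a5 2.46-fold. The creatine carrier Slc6a8 fell 5.57-fold to 126 ± 6.12 CPM in VprBP-labelled libraries, against 702 ± 24.4 CPM in control-labelled libraries. Slc24a5, a cation exchanger of pigment cells, fell 2.65-fold, the phosphate carrier Slc20a1 2.55-fold and the sodium-proton exchanger Slc9a8 1.65-fold. All 8 had an edgeR adjusted p below 0.05, the highest being 8.07e-09 for Slc9a5.

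Genes that insert, glycosylate or fold membrane proteins, most of them of the endoplasmic reticulum, were mostly lower. Among them, Wrb, Camlg, Get3 and Get4 serve tail-anchored proteins rather than the beta subunits. Of 21, all with a row and tested, 17 fell, 3 rose and 1 was not called, where 37.0% of all tested genes fell (median -0.92). Hspa5, the chaperone BiP, fell 13.2-fold to 1389 ± 54.5 CPM in VprBP-labelled libraries, against 18400 ± 345 CPM in control-labelled libraries. The lectin chaperone calreticulin, Calr, fell 4.59-fold, the disulphide isomerase P4hb 2.40-fold and Rpn1, a subunit of the complex that attaches sugars to new proteins, 2.60-fold. All 4 had an edgeR adjusted p below 0.05, the highest being 4.60e-16 for Rpn1. The 3 that rose were Wrb, an insertase for tail-anchored proteins (2.19-fold, adjusted p = 1.75e-07), and the membrane complex subunits Emc10 (1.33-fold, adjusted p = 2.51e-06) and Emc1 (1.08-fold, adjusted p = 0.0288). The Emc1 call was lost without VprBP-labelled library 3 (edgeR adjusted p = 0.0597) and without control-labelled library 2 (0.166) or 3 (0.0702), and with upper quartile scaling (0.0797).

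**Figure D4:**
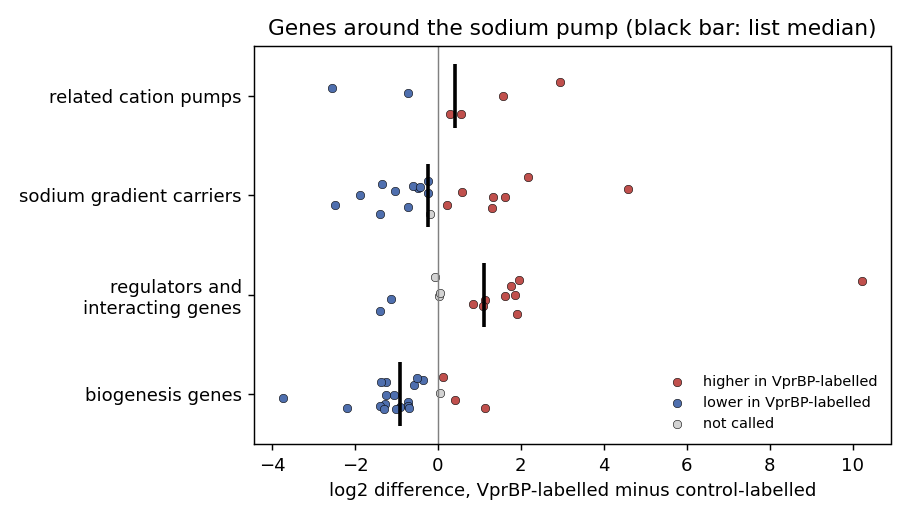
Fitted log2 difference of each tested gene (point, coloured by its edgeR call) in 4 gene lists around the pump, with the list median as a black bar. The medians run from 1.12 for the regulators and interacting genes to -0.92 for the biogenesis genes, and the point at the far right is Nkain4, whose fitted value rests on 0 control-labelled counts.

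Within 100000 bases of them lay 19 other genes with a row, of which 16 were tested. Among these 7 rose, 7 fell and the other two missed the threshold, where 75.0% of all tested genes were called, so nothing is read from the count. The nearest to Atp1b2 on the lower side was Trp53, the tumour suppressor gene, 7863 bases away, which fell 1.51-fold to 90.1 ± 1.86 CPM in VprBP-labelled libraries, against 136 ± 3.89 CPM in control-labelled libraries (edgeR adjusted p = 5.68e-09). On the higher side it was Sat2, 16082 bases away, which rose 1.69-fold (edgeR adjusted p = 0.000313). Beside Atp1b3, Tfdp2, a partner of the E2F cell cycle factors 9009 bases away, rose 2.13-fold (edgeR adjusted p = 1e-09), and BC043934, 71341 bases away on the other side, rose 2.12-fold (edgeR adjusted p = 0.000181). Beside Atp1b1, Gm37411 lay 10115 bases away and was too low to be tested (0.287 ± 0.205 CPM in VprBP-labelled and 0.348 ± 0.201 CPM in control-labelled libraries).

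The genes whose levels ran closest to each member were found by Euclidean distance in log2(CPM + 0.5) over the 6 libraries, a description of level and difference together. Closest to Atp1b2 were Prelp, a matrix proteoglycan (distance 1.08; 232 ± 5.55 CPM in VprBP-labelled and 0.996 ± 0.117 CPM in control-labelled libraries), the secreted protease Prss23 (1.74) and the matrix protein Fbln2 (1.77). Among the closest to Atp1b3 were the shedding protease Adam17 (0.13; 256 ± 11.1 CPM in VprBP-labelled and 209 ± 5.63 CPM in control-labelled libraries) and Bcap31, a protein of the endoplasmic reticulum (0.17). Closest to Atp1b1 were Nptx1, a neuronal pentraxin (0.32; 1.66 ± 0.481 CPM in VprBP-labelled and 0.0638 ± 0.111 CPM in control-labelled libraries), the growth factor binding protein Igfbp5 (0.50) and Dpysl5 (0.51). Prelp, the nearest profile to Atp1b2, was thus farther off than those nearest to the other members.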

How the data were processed

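The deposited table holds unscaled expected counts per gene. The submitters' processing notes name the software Partek and the genome mm10, which is GRCm38. Aligner, counter, strand setting and annotation: not given in the sources used here. In each library 62.1% to 64.5% of the values were whole within 0.001. Of 18908 IDs, 18501 (97.8%) matched GENCODE M21, with the same starts, and its exon unions gave lengths. The lowest row total was 10 counts.

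Counts were rounded and fitted over all 14641 genes passing filterByExpr with edgeR 4.0.16 in R 4.3.3 (quasi-likelihood F test, TMM scaling, group as the only term, Benjamini-Hochberg adjustment over all of them); DESeq2 1.42.0 was an alternative. The fit was tested on simulated data. CPM used TMM-scaled library sizes. A count of 0 allows a level of up to 3 counts, which is 0.137 to 0.178 CPM by total counts without TMM scaling. Such floors and counting intervals cover counting error only. Camlg and Get3 were matched as Caml and Asna1 by RefSeq synonyms.

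Some genes are not reported here and are left out of the lists. Named genes were the members, FXYD genes with a row, up to 4 higher and 4 lower genes of each other list by smallest p, nearest neighbours and closest profiles. The members, lists and tests were chosen with earlier results of these data known.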

Additional observations from a re-analysis of the deposited data

How the results depend on the processing

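The differences of Atp1b1, Atp1b2 and Atp1b3 stayed above 0 under every alternative that gave a value: other scalings (DESeq2 size factors, library size only, upper quartile), no filter, a mean of at least 1 CPM, DESeq2, and each library left out. Atp1b1 gave no value under the 1 CPM filter. Leaving out 1 library, Atp1b1 ranged from 3.52 to 4.59 on the log2 scale and Atp1b2 from 7.01 to 7.61. With library size only, Atp1b3 moved to 0.40. Without length scaling, the beta share of Atp1b2 was 41.8% in VprBP-labelled and 0.514% in control-labelled libraries, and that of Atp1b3 57.8% and 99.4%, in the same order; with the longest transcript, the VprBP-labelled shares were 27.7% for Atp1b2 and 72.0% for Atp1b3. Fewer assumed bases raise a gene's level by construction. Counts of calls per list stayed within 1.5 times. Of 31 other named genes, only Emc1 and Dcaf1 lost a call in any setting, and none reversed.

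Same-numbered libraries did not deviate together (r = -0.032, 0.007 and -0.042), and the main fit did not pair them. Whether they share an animal or a culture is not given, and these correlations cannot decide it. With the replicate block, 10649 genes were called in place of 10974, Atp1b2 differed by 7.35, and Emc1 was not called (edgeR adjusted p = 0.0602). Depth limits Atp1b1, Fxyd1, Fxyd3 and Nkain4, with 9 or fewer control-labelled counts each.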
